A study of Mus musculus with 15 samples.

Results

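The genes described are those of the ubiquitin-conjugating enzymes, taken as every gene whose symbol on the array starts with Ube2. There were 35 such genes among 19938 genes measured, and all 35 entered every comparison, since no filter on dim values was used. They were measured on 15 arrays of fetal liver cells from FVB/NJ mouse embryos at stage E14.5. The cells were sorted with magnetic beads against TER119, a surface antigen of maturing red cell precursors, into a bound (positive) and a depleted (negative) fraction. The 4 groups were wild-type (WT) TER119 positive cells (4 arrays), Klf3 KO TER119 positive cells (3 arrays), WT TER119 negative cells (4 arrays) and Klf3 KO TER119 negative cells (4 arrays). The labels name the Klf3 KO without the part of the gene that was removed, a promoter or a Cre, and do not say whether an array stands for a single embryo or a pool. Where the replicates came from is likewise not stated, and the spread behind each p-value may in part be technical.

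Ubiquitin is activated by an E1 enzyme, carried on a cysteine of an E2 enzyme, and passed on to a target protein with the help of an E3 ligase. The E2 helps to set which linkage a ubiquitin chain has and so whether the target is degraded or put to another use. A few members carry ubiquitin-like proteins such as NEDD8 or ISG15 instead, and UBE2V1 and UBE2V2 lack the catalytic cysteine and act as partners of UBE2N. Ube2cbp has the symbol but encodes a protein described as an E3 ligase. In late red cell precursors UBE2O, a large E2 that can also act as an E3, marks ribosomal proteins for degradation as the cell is cleared of its organelles, and UBE2H works with the CTLH ligase complex, whose subunit MAEA is needed for red cell maturation. KLF3 is a repressor that binds CACCC boxes in DNA.

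The sequences upstream of 4 genes are shown as background, and no comparison of expression used them. The genes were picked after the results were known. Ube2j1 was the member that differed most by genotype, Rragd is its neighbour on the chromosome, and Ube2l6 and Ube2h were among the members that differed most between the sorted fractions. For Ube2o, which rose most between the fractions, and for Ube2w no upstream window was at hand. The 250 bases before each start are from RefSeq, build GRCm38.p6, written 5′ to 3′ along the gene. Capitals mark CACCC or AGATAA, the letters of the KLF and GATA boxes, on either strand (GGGTG or TTATCT on the other).
Ube2j1, chr4:33031130-33031379, plus strand: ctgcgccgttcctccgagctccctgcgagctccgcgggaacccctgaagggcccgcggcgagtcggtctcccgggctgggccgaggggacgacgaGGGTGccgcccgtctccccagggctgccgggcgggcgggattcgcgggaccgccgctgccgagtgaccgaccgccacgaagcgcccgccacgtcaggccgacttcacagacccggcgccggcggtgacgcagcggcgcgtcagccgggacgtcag
Rragd, chr4:32982748-32982997, plus strand: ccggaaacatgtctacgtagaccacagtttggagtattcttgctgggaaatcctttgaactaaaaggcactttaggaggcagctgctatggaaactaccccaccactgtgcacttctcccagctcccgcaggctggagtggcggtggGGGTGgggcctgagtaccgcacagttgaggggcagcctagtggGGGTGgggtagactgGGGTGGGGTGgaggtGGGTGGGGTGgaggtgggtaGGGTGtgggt
Ube2l6, chr2:84798578-84798827, plus strand: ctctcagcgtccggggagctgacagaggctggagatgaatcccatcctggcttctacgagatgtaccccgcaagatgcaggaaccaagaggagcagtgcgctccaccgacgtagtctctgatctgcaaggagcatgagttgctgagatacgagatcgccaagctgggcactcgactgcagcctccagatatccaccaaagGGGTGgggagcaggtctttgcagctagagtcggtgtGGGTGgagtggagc
Ube2h, chr6:30243804-30244053, minus strand: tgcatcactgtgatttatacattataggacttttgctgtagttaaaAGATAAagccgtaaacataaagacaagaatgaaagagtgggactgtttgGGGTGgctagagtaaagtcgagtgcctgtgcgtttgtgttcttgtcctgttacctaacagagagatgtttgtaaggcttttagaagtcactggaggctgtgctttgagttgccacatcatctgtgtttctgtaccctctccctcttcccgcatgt

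The Rragd window held 7 matches to CACCC, all on the opposite strand, and 0.0974% of the 32851 upstream windows in the table held 7 or more. The Ube2j1 window held 1 match and the Ube2l6 window 2, while 52% of all windows held at least 1. Of the 35 members, 29 were found in the table, with 38 windows, and 26 of those windows (68.4%) held CACCC with at most 3 matches each. AGATAA was found in 1 of the 38 windows (2.63%), a start of Ube2h that lies inside the gene, against 9.99% of all windows. The other Ube2h start held no match to either. These matches describe letters and not binding, and windows of the same gene can overlap.

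The arrays and the fractions were described first. The deposited values are log2 expression between 2.91 and 14.26 per probe set, and the median of an array lay between 5.28 and 5.43. The Klf3 probe set did not separate the genotypes, at 10.34 to 10.55 in KO against 9.94 to 10.50 in WT TER119 positive arrays and 8.02 to 8.74 against 7.94 to 8.80 in TER119 negative arrays. Since the removed part is not named, this probe set is no check of the genotype, which is known from the labels alone (hence KO-labelled). The mean of 14 late erythroid markers lay between 11.29 and 11.44 in all TER119 positive arrays and between 7.61 and 8.54 in all TER119 negative arrays. The mean of 18 hepatocyte markers was also higher in the positive fraction (10.94 to 11.65) than in the negative fraction (5.72 to 8.07), as was that of 14 macrophage markers (7.93 to 8.37 against 5.43 to 5.77). Among the 8 TER119 negative arrays, WT replicates 2 and 4 and KO-labelled replicate 4 stood apart on the first principal component (54.2% of the variance), at 25.8, 45.3 and 18.8 against -25.4 to -9.3 for the other 5. Xist and the Y-linked genes called 0 of 4 WT and 3 of 4 KO-labelled TER119 negative arrays female, and 2 of 4 WT and 2 of 3 KO-labelled TER119 positive arrays.

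The first comparison asked which E2 genes differ by genotype in TER119 positive cells. Of the 35 members 2 rose in KO-labelled cells, Ube2j1 and Ube2w, and 0 fell. That is 5.71% of the members, where 1.02% of all genes passed the same threshold of an adjusted p of 0.05. Since the members were chosen with earlier results of these data known, the 5.71% is a description and no test. The other 33 members lay between -0.26 and 0.22 on the log2 scale. The median difference was -0.031 over the members and -0.010 over all genes.

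UBE2J1 sits in the membrane of the endoplasmic reticulum and helps to degrade misfolded proteins there. Ube2j1 stood at 9.57, 9.56 and 9.68 in the KO-labelled TER119 positive arrays. In the WT TER119 positive arrays it stood at 8.54, 8.62, 8.46 and 8.49. The lowest KO-labelled array lay above the highest WT array. The rise was 1.08 (SE 0.09, adjusted p = 1.89e-06), or 2.11-fold, and its p-value ranked 26 among 19938 genes. With any single array of these groups left out, and under every other setting tried, the rise lay between 1.01 and 1.11 and passed the threshold.

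In TER119 negative cells Ube2j1 stood at 9.86, 9.98, 10.13 and 9.99 in KO-labelled and at 9.85, 9.83, 9.90 and 9.75 in WT arrays. The lowest KO-labelled array lay within the WT range, and the difference of 0.16 (SE 0.08, 95% interval -0.02 to 0.34, adjusted p = 0.655) did not pass. The effect of the genotype was larger in TER119 positive than in TER119 negative cells by 0.92 (SE 0.12, adjusted p = 0.000856). Among WT cells Ube2j1 was lower in the positive fraction, by -1.31 (SE 0.08, adjusted p = 1.14e-09), and among KO-labelled cells by -0.39 (SE 0.09, adjusted p = 0.00162). These contrasts share arrays, so the values describe the same 4 groups from different sides. The KO-labelled TER119 positive arrays thus lay between the WT TER119 positive arrays and the TER119 negative arrays.

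Ube2j1 lies next to Rragd, whose product is a Rag GTPase of the mTORC1 nutrient pathway. In the RefSeq annotation 1 gene, a long noncoding RNA not among the genes measured here, lies between them. Rragd stood at 9.50, 9.40 and 9.44 in KO-labelled and at 4.71, 4.69, 4.80 and 4.53 in WT TER119 positive arrays. Its rise of 4.77 (SE 0.15, adjusted p = 1.66e-11) compares with 1.08 for Ube2j1 in the same arrays. In TER119 negative cells Rragd stood at 5.21, 5.71, 5.96 and 5.28 in KO-labelled and at 4.63, 4.78, 4.51 and 4.79 in WT arrays, a rise of 0.86 (SE 0.14, adjusted p = 0.0236). The nearest measured gene on the other side of Ube2j1, Gabrr2, encodes a GABA receptor subunit. It lay between 4.29 and 4.79 in all arrays, and differed by 0.16 (SE 0.11, adjusted p = 1) and -0.19 (SE 0.10, adjusted p = 0.655) in the positive and negative cells. The values hold no detection calls, so the low levels of Rragd and Gabrr2 may lie at background and the size of the Rragd difference is not exact.

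UBE2W attaches ubiquitin to the amino terminus of proteins. Ube2w stood at 8.09, 7.83 and 7.82 in the KO-labelled TER119 positive arrays. In the WT TER119 positive arrays it stood at 7.14, 7.55, 6.98 and 7.24, below all KO-labelled arrays. The rise was 0.68 (SE 0.13, adjusted p = 0.0104), or 1.61-fold. Without KO-labelled replicate 1, the highest array, it was 0.60 with an adjusted p of 0.1 and did not pass.

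In TER119 negative cells Ube2w pointed the other way without passing. It stood at 6.73, 6.99, 6.76 and 6.92 in KO-labelled and at 6.98, 7.17, 7.08 and 6.91 in WT arrays, which overlap (-0.18, SE 0.12, adjusted p = 0.682). The difference between the effects was 0.87 (SE 0.18, adjusted p = 0.0381), but it passed under only 8 of 26 other settings, with adjusted p-values from 0.0074 to 0.171. It was 0.89 (adjusted p = 0.11) without the 3 TER119 negative arrays that stand apart. It also did not pass without any of the 3 KO-labelled TER119 positive arrays in turn, without WT positive replicates 1, 3 or 4, without KO-labelled negative replicates 1, 3 or 4, or without WT negative replicates 1, 2 or 3. Between the fractions, Ube2w was higher in TER119 positive cells by 1.06 (SE 0.13, adjusted p = 2.72e-06) in KO-labelled cells and differed by 0.19 (SE 0.12, adjusted p = 0.187) in WT cells. The nearest measured genes on either side of Ube2w are Stau2 and Eloc, with 2 genes not measured here between Ube2w and Stau2. Stau2, which encodes an RNA-binding protein, and Eloc, which encodes a subunit of cullin ubiquitin ligases, differed by 0.02 (adjusted p = 1) and 0.31 (SE 0.13, adjusted p = 0.851) in TER119 positive cells.

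**Figure D1:**
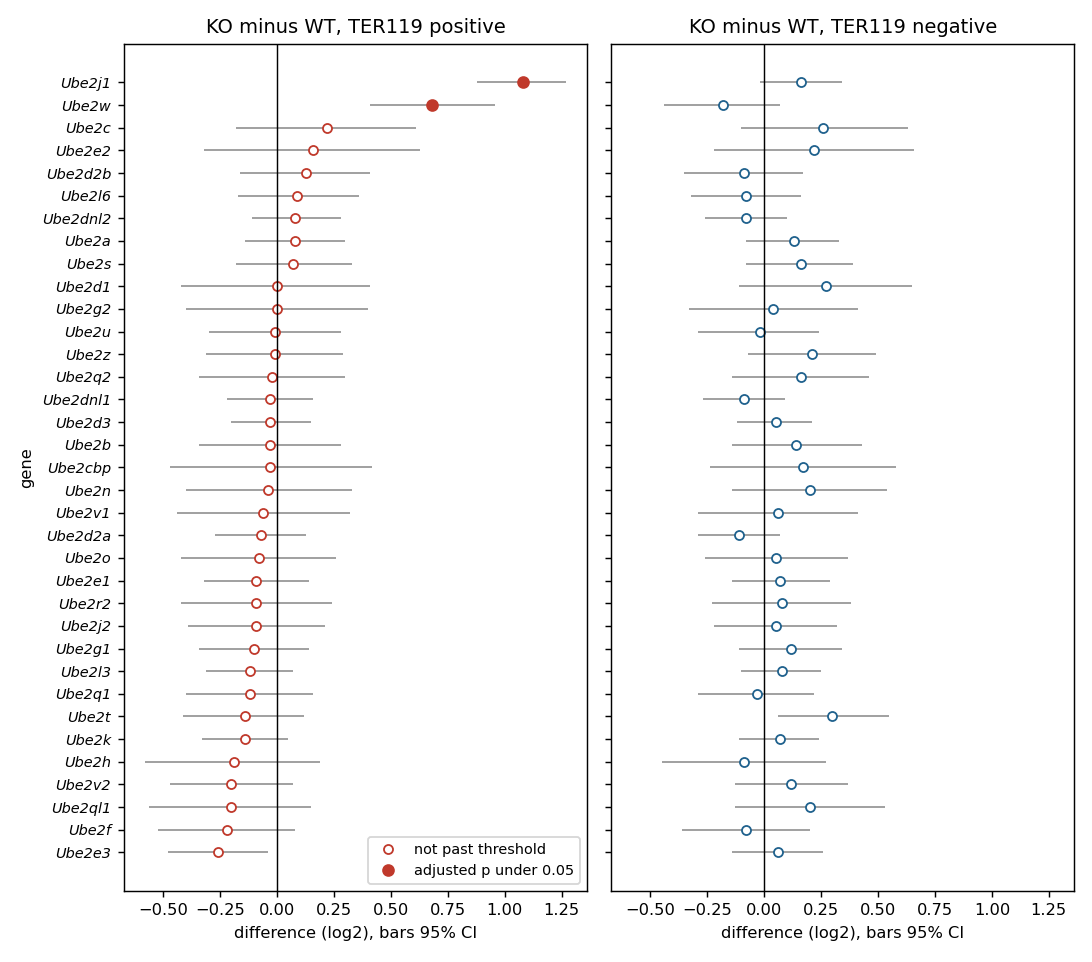
Difference between KO-labelled and WT cells on the log2 scale (x axis) for each of the 35 Ube2 genes (y axis), in TER119 positive (left) and TER119 negative cells (right). Points are estimates of the linear model, bars their 95% intervals, and filled points passed an adjusted p of 0.05: Ube2j1 (1.08) and Ube2w (0.68) on the left, and 0 genes on the right.

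**Figure D2:**
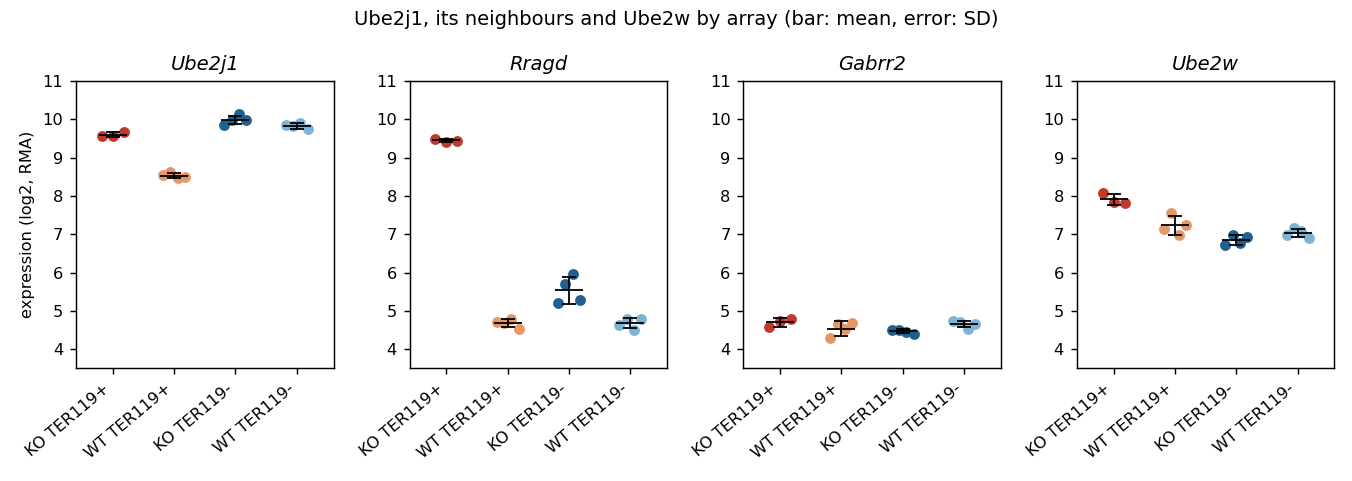
Log2 expression (y axis) of Ube2j1, its neighbours Rragd and Gabrr2, and Ube2w on each array, by group (x axis), with the group mean and SD in black. The 3 KO TER119 positive arrays lie above all WT TER119 positive arrays for Ube2j1, Rragd and Ube2w, while Gabrr2 lies between 4.29 and 4.79 on all arrays.

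The means of some marker lists did not overlap between the genotypes in the same TER119 positive arrays. The mean of 10 megakaryocyte and platelet markers lay between 8.42 and 8.81 in KO-labelled and between 9.23 and 9.55 in WT arrays. None of those markers passed by itself, and all 10 differences lay between -0.98 and -0.56. The mean of 10 interferon response genes lay between 5.98 and 6.06 in KO-labelled and between 5.70 and 5.91 in WT arrays, but only Rsad2 (1.12) and Cmpk2 (0.91) passed and the median difference was 0.05. The mean of 12 progenitor markers lay between 6.85 and 6.96 in KO-labelled and between 6.64 and 6.79 in WT arrays, where only Spi1 (2.36) passed and the median difference was -0.07. Means of late erythroid (11.30 to 11.44 against 11.29 to 11.43) and hepatocyte markers (11.11 to 11.57 against 10.94 to 11.65) overlapped. The means of 14 macrophage markers overlapped too (7.93 to 8.15 against 8.07 to 8.37). Of these markers only Vsig4 passed, lower in KO-labelled arrays (-1.21), and the median difference was -0.08. The part of these cells in the rises of Ube2j1 and Ube2w was not tested, and in such bulk samples fewer cells of a type and less RNA per cell cannot be told apart.

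The remaining members gave no call by genotype in either fraction. Ube2e3, a member of the class that works with many ligases, came closest among falls. It stood at 10.35, 10.34 and 10.13 in KO-labelled and at 10.61, 10.40, 10.63 and 10.50 in WT TER119 positive arrays, which do not overlap. Its difference of -0.26 (SE 0.10, adjusted p = 0.652) did not pass, and 10.1% of all genes had arrays that do not overlap in this comparison. The members that rose most between the fractions in WT cells did not pass by genotype either. In TER119 positive cells the 95% intervals of their differences were -0.42 to 0.26 for Ube2o, -0.58 to 0.19 for Ube2h and -0.17 to 0.36 for Ube2l6.

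TER119 negative cells were compared by genotype in the same way. With limma, 0 of 35 members passed, where 0.0853% of all genes did, and 1 member, Ube2t, had an unadjusted p under 0.05, against 7.56% of all genes. Ube2t encodes the E2 of the Fanconi DNA repair pathway. It stood at 6.92, 7.09, 7.09 and 6.83 in KO-labelled and at 6.71, 6.41, 6.92 and 6.67 in WT arrays, a difference of 0.30 (SE 0.12, adjusted p = 0.644). The members lay between -0.18 and 0.30. Their median was 0.072, against -0.016 over all genes. Without the 3 arrays that stand apart it was 0.018, against -0.011. With dim genes left out, the median over all genes was 0.071, near the 0.072 of the 35 members. The gap to all genes thus depends on dim genes. The mean of late erythroid markers lay between 8.03 and 8.54 in KO-labelled and between 7.61 and 8.23 in WT arrays, and that of hepatocyte markers between 5.72 and 7.13 and between 5.93 and 8.07. By Xist and the Y-linked genes, 0 of 4 WT and 3 of 4 KO-labelled arrays of this fraction were female, so sex and genotype largely go together. The part of these cells and of sex in the members' values was not tested.

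The third comparison set the TER119 positive against the TER119 negative fraction, which are mixtures of cells. Of the 35 members 12 were higher and 9 were lower in WT TER119 positive cells, where 23.5% of all genes were higher and 29.1% lower. That is 60% of the members, against 52.6% of all genes, so the share of members that changed was near the background. As to size, 3 members, Ube2o, Ube2h and Ube2l6, were at least 8-fold higher (8.57% of members), against 1.4% of all genes. The members were chosen with earlier results of these data known, so this share is a description and no test. In KO-labelled cells 12 were higher and 12 were lower (68.6%, against 49% of all genes), where 22.6% of all genes were higher and 26.5% lower. The same 3 members were at least 8-fold higher there, against 1.58% of all genes. The fractions also differ in markers of other cells. The 12 measured markers of neutrophils and their precursors were all lower in WT TER119 positive cells (median -5.33), with a mean of 5.01 to 5.39 in WT positive and 10.11 to 10.43 in WT negative arrays, and all 12 were lower in KO-labelled cells (median -4.84). All 18 hepatocyte, 14 macrophage and 8 stromal markers and 6 of 8 endothelial markers were higher in WT TER119 positive cells. With hepatocyte markers as a term in the model, 14 members passed in WT and 12 in KO-labelled cells. The calls then lost in WT cells were those of Ube2a, Ube2b, Ube2d1, Ube2d2a, Ube2g1, Ube2j2, Ube2k and Ube2q2, and those lost in KO-labelled cells included Ube2j1 (adjusted p = 0.802) and Ube2w (adjusted p = 0.246). The part of the other cells in the rises and falls was not tested.

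**Figure D3:**
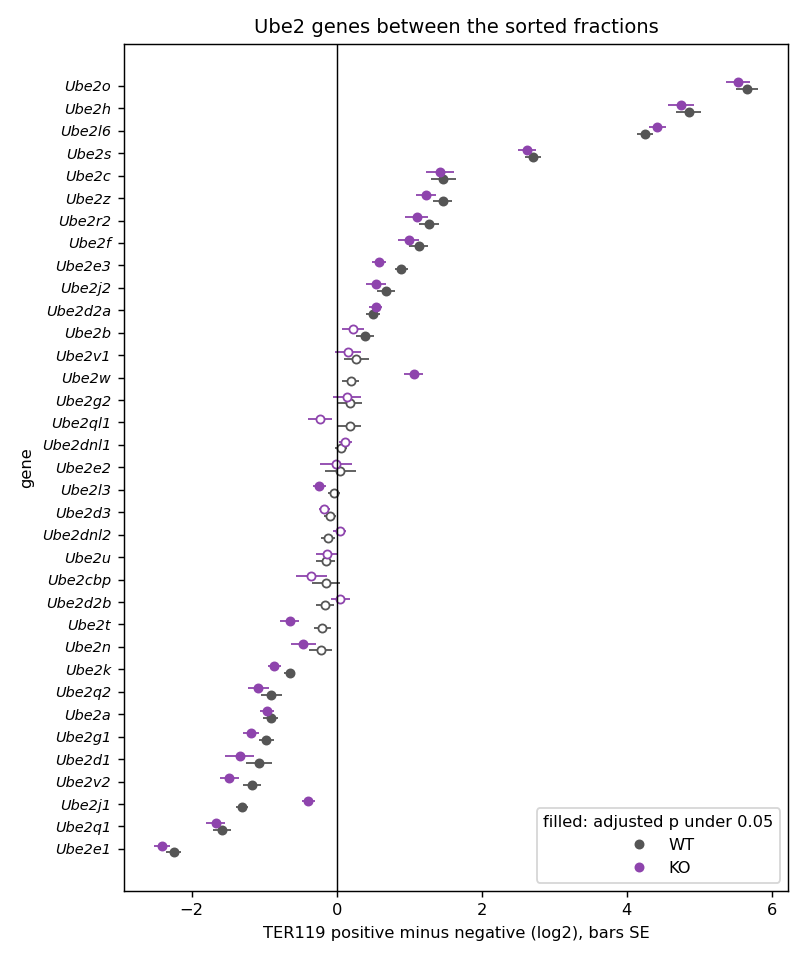
Difference between TER119 positive and TER119 negative cells on the log2 scale (x axis) for each of the 35 Ube2 genes (y axis), in WT (grey) and KO (purple) cells. Points are estimates, bars SEs, and filled points passed an adjusted p of 0.05; Ube2o, Ube2h and Ube2l6 stand between 4.25 and 5.66, and the genotypes differ past the threshold for Ube2j1 and Ube2w.

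The E2 genes tied to late red cell precursors rose most. Ube2o stood at 11.78, 11.48, 11.80 and 11.55 in WT TER119 positive arrays and at 6.06, 5.96, 6.40 and 5.54 in WT TER119 negative arrays. The rise was 5.66 (SE 0.15, adjusted p = 5.56e-14), or 50.6-fold. In KO-labelled arrays it stood at 11.65, 11.56 and 11.50 against 6.16, 5.88, 6.23 and 5.91, a rise of 5.53 (SE 0.16). The fractions do not come near each other in either genotype.

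Ube2h stood at 12.31, 12.22, 12.54 and 12.41 in WT TER119 positive arrays and at 7.52, 7.77, 7.83 and 6.95 in WT TER119 negative arrays. The rise was 4.85 (SE 0.17, adjusted p = 8.63e-13), or 28.9-fold. In KO-labelled arrays it stood at 12.22, 12.26 and 12.06 against 7.77, 7.26, 7.21 and 7.48. Ube2h had 2 probe sets, and the second gave a WT difference of 3.78, so the direction is shared and the size depends on the probe set.

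Among E2s for ubiquitin-like proteins, all 3 measured members rose. UBE2L6 carries the interferon-induced ISG15, and can carry ubiquitin as well. Ube2l6 stood at 11.27, 11.14, 11.36 and 11.18 in WT TER119 positive arrays and at 6.78, 7.06, 6.97 and 7.14 in WT TER119 negative arrays. Its rise was 4.25 (SE 0.11, adjusted p = 6.52e-14), or 19-fold. Of 10 interferon response genes 3 were higher and 4 were lower between the same arrays, with a median of -0.26 and Rsad2 highest at 5.24. In KO-labelled arrays Ube2l6 stood at 11.47, 11.38 and 11.14 against 7.09, 6.80, 6.69 and 7.06. The NEDD8 carrier Ube2f rose by 1.13 (SE 0.13, adjusted p = 1.53e-06) and Ube2z, which serves FAT10 and ubiquitin through the E1 UBA6, rose by 1.46 (SE 0.13, adjusted p = 6.96e-08).

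The E2s of the anaphase-promoting complex, which takes cells through mitosis, both rose. UBE2C starts the ubiquitin chains of that complex and UBE2S lengthens them. Ube2s stood at 11.72, 11.57, 11.77 and 11.57 in WT TER119 positive and at 9.08, 8.87, 9.10 and 8.79 in WT TER119 negative arrays, a rise of 2.70 (SE 0.11, adjusted p = 6.16e-12). Ube2c stood at 10.34, 10.01, 10.24 and 10.01 against 9.06, 8.48, 8.99 and 8.19, a rise of 1.47 (SE 0.17, adjusted p = 1.67e-06). The arrays of the fractions do not overlap for either gene. The mean of 11 proliferation markers was 10.18 to 10.31 in WT TER119 positive and 9.40 to 9.84 in WT TER119 negative arrays. These markers share Cdc20 with the list of this complex, and 8 were higher and 2 lower, from -1.09 to 1.70. Of all genes 23.5% were higher and 29.1% lower. The KO-labelled rises were 2.62 for Ube2s and 1.42 for Ube2c.

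**Figure D4:**
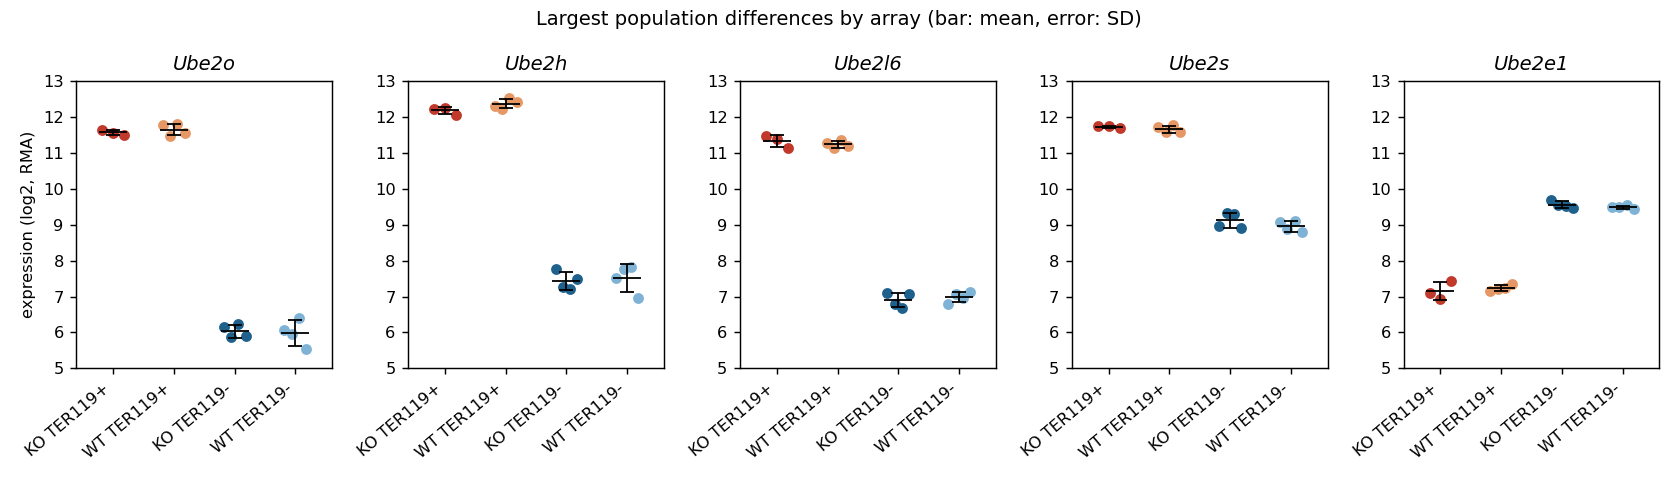
Log2 expression (y axis) of the 4 Ube2 genes with the largest rises and of the gene with the largest fall between the fractions, on each array by group (x axis), with the group mean and SD in black. Ube2o, Ube2h, Ube2l6 and Ube2s are high on all 7 TER119 positive arrays and Ube2e1 is high on all 8 TER119 negative arrays, with KO and WT arrays side by side.

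The generalist E2s, which serve many ligases, went separate ways. The list holds the D and E classes and Ube2w. Of 10 measured, 2 rose and 2 fell in WT cells, where 23.5% of all genes rose and 29.1% fell. Ube2e1 showed the largest fall of all members: it stood at 7.16, 7.21, 7.24 and 7.35 in WT TER119 positive and at 9.49, 9.49, 9.54 and 9.44 in WT TER119 negative arrays. The difference was -2.25 (SE 0.10, adjusted p = 1.55e-11). The related Ube2e3 rose by 0.89 (SE 0.09, adjusted p = 4.73e-07), and Ube2e2 did not pass (0.05, SE 0.21). Within the D class Ube2d1 stood at 6.49, 6.95, 6.44 and 6.87 against 7.96, 7.67, 8.20 and 7.18, a difference of -1.07 (SE 0.18, adjusted p = 9.52e-05). Ube2d2a rose by 0.50 (SE 0.09, adjusted p = 0.000114), but its second probe set gave -0.03. Ube2d3, the member with the smallest spread within groups (SD 0.059), lay between 12.49 and 12.79 on all 15 arrays and did not pass. That is its brightest probe set, and its other probe sets gave WT differences of -0.14 and 0.35.

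Other pairs of related E2s also parted. Among E2s of the endoplasmic reticulum Ube2j1 fell, as given above, while Ube2j2 rose by 0.68 (SE 0.13, adjusted p = 0.000286) and Ube2g2 did not pass (0.18, SE 0.17). UBE2A and UBE2B are the near-identical RAD6 enzymes of DNA damage tolerance. Ube2a fell by 0.91 (SE 0.10, adjusted p = 4.63e-07) and Ube2b rose by 0.39 (SE 0.13, adjusted p = 0.0233) in WT cells. The rise of Ube2b was not called in KO-labelled cells (0.22, adjusted p = 0.244), nor in WT cells without WT positive replicate 2 (adjusted p = 0.0545) or without WT negative replicate 1 (adjusted p = 0.0888). With sex as a term it was 0.35 (adjusted p = 0.0678). Probes of such close relatives may read each other's transcripts, and the deposited values do not separate this.

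UBE2N joins ubiquitin into chains linked through lysine 63 with UBE2V1 or UBE2V2, which serve signalling and repair. Ube2v2 stood at 9.80, 9.72, 9.53 and 9.64 in WT TER119 positive and at 10.78, 11.11, 10.67 and 10.79 in WT TER119 negative arrays. It fell by 1.17 (SE 0.12, adjusted p = 2.80e-07) there, and Ube2n (-0.22) and Ube2v1 (0.27) did not pass. A second probe set of Ube2v1 gave 0.85, and with the mean of its probe sets Ube2v1 passed in WT and in KO-labelled cells. The 3 probe sets of Ube2v2 gave -1.17, -1.20 and -2.70. Of the E2s that build chains for degradation, Ube2r2 rose by 1.27 (SE 0.14, adjusted p = 1.17e-06). Ube2g1 fell by 0.97 and Ube2k fell by 0.65. Ube2q1 and Ube2q2, E2s of a less studied class, both fell. Ube2q1 stood at 7.32, 7.47, 7.08 and 7.51 against 9, 8.78, 9.10 and 8.84, a difference of -1.58 (SE 0.12, adjusted p = 1.09e-08), and Ube2q2 fell by 0.90 (SE 0.14).

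For 9 members with more than 1 probe set the brightest was used, and for Ube2l3 the probe sets disagreed as well. UBE2L3 is the E2 of ligases that take ubiquitin onto their own cysteine, such as parkin. Its brightest probe set gave a WT difference of -0.04 (SE 0.08, adjusted p = 0.711), another gave -0.14 and the third gave 2.02. Ube2l3 was called lower in KO-labelled cells (-0.24, adjusted p = 0.0353), but not without KO-labelled positive replicates 1 or 2 or negative replicates 2, 3 or 4 (adjusted p from 0.0574 to 0.188). With the mean of its probe sets Ube2l3 was called higher (0.44, adjusted p = 0.00532), so no direction is given. The dimmest members, Ube2dnl2, Ube2dnl1, Ube2u, Ube2ql1 and Ube2d2b, lay below 5.66 on all arrays and did not pass in any comparison, nor did Ube2cbp and Ube2e2.

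Genes that work with the E2s were taken from lists of their known partners. Of 87 measured partner genes 0 passed by genotype in TER119 positive and 0 in TER119 negative cells, by limma. At an unadjusted p under 0.05 there were 5 (5.75%, against 5.33% of all genes) and 10 (11.5%, against 7.56%). The 14 measured genes of degradation at the endoplasmic reticulum, the process of UBE2J1, lay between -0.21 and 0.23 in TER119 positive cells, with a median of -0.01, and between -0.29 and 0.42 in TER119 negative cells, with a median of 0.06. Between the fractions in WT cells, 38 of the 87 partners were higher and 29 were lower, against 23.5% and 29.1% of all genes.

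The CTLH ligase is the partner of UBE2H. Of its 11 genes 7 were higher and 2 were lower in WT TER119 positive cells, with a median of 0.75 against -0.088 over all genes. Of all genes 23.5% were higher and 29.1% lower. Ranbp10 rose by 4.63 (SE 0.23, adjusted p = 4.39e-11), Wdr26 by 2.84 (SE 0.15) and Rmnd5a by 2.43 (SE 0.19), all of which encode subunits, and Maea, which encodes a catalytic subunit, by 0.75. Ranbp9, the close relative of Ranbp10, fell by 1.95 (adjusted p = 7.71e-09). Armc8 fell by 0.66 (SE 0.10).

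In the ISG15 pathway 1 of 5 measured genes rose, Uba7, which encodes the E1 that charges UBE2L6. Uba7 rose by 3.44 (SE 0.14, adjusted p = 4.70e-12), while the ligase gene Herc6 fell by 0.94 (SE 0.12) and Usp18, whose product removes ISG15 and which is also among the interferon response genes, fell by 0.97 (SE 0.20). Isg15 itself was not analysed here. Of the E1 genes, 3 of 8 measured rose and 3 fell, where 23.5% of all genes rose and 29.1% fell. Nae1, which encodes a subunit of the NEDD8 E1, fell by 2.06 (SE 0.11) and Uba6 fell by 1.79 (SE 0.16).

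Between the fractions in WT cells 23.5% of all genes were higher and 29.1% lower, which is the background for each list that follows. Of 17 genes of the anaphase-promoting complex 6 were higher and 6 were lower, with a median of 0.01. Fzr1, which encodes the activator of the complex in G1, rose by 4.53 (SE 0.17, adjusted p = 1.76e-12), Anapc2 rose by 1.39 (SE 0.20) and Anapc13 fell by 2.11 (SE 0.14). Of 14 genes of degradation at the endoplasmic reticulum 10 were higher and 2 were lower (median 0.62), led by Herpud1 (1.83), Aup1 (1.52) and Sel1l (1.09). Hepatocyte markers moved the same way between these arrays, and their part in this list was not tested. Of 8 ligases tied to red cells 6 were higher and 0 were lower (median 1.83), with rises of 5.03 for Trim10, 4.23 for Rnf123 and 3.34 for Trim58; Trim10 and Trim58 also belong to the late erythroid markers. Of 11 RAD6 and Fanconi partners 3 were higher and 5 were lower, from -1.43 for Rnf168 and -1.29 for Hltf to 1.75 for Rnf40. E2 genes without a Ube2 symbol gave 1 rise and 4 falls among 7, the largest falls in Atg3 (-1.32) and Atg10 (-1.24), the E2s of autophagy, and Ufc1 (-0.99), that of UFM1. The measured modifiers gave 2 rises and 5 falls among 7, with Sumo3 (-1.67), Ubd (-1.28) and Fau (-1.23) lowest.

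**Figure D5:**
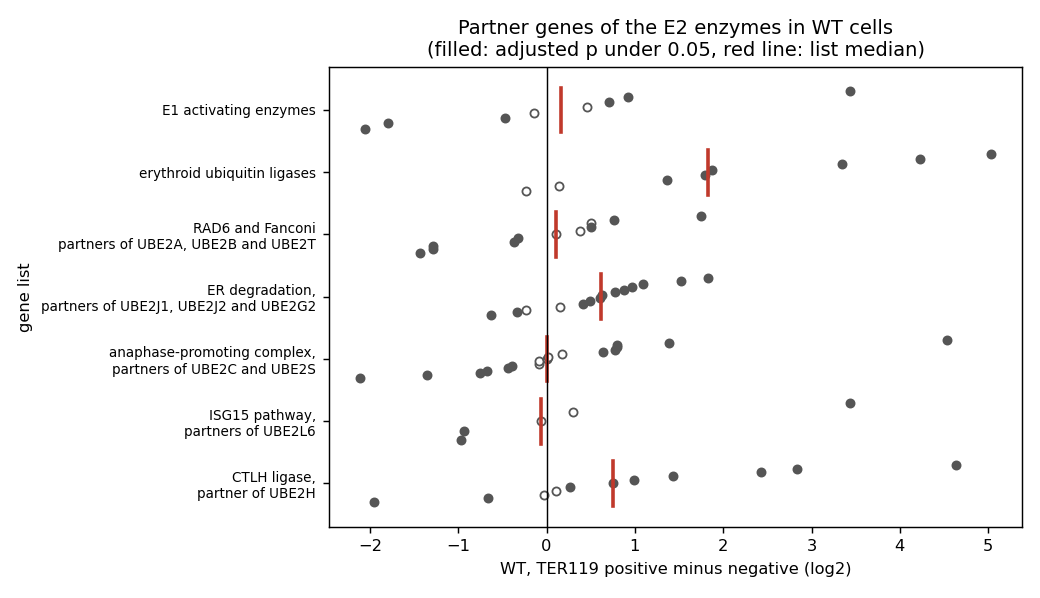
Difference between WT TER119 positive and WT TER119 negative cells on the log2 scale (x axis) for the measured genes of 7 partner lists (y axis). Each point is a gene, filled where its adjusted p was under 0.05, and the red line is the median of the list, 1.83 for the red cell ligases and 0.75 for CTLH.

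Calls in KO-labelled but not in WT cells were those of Ube2w (higher) and of Ube2t, Ube2n and Ube2l3 (lower), and Ube2b was called in WT cells only. Of these, the difference between genotypes passed for Ube2w alone. Ube2t differed by -0.65 (SE 0.13, adjusted p = 0.000352) in KO-labelled and by -0.20 (SE 0.12, adjusted p = 0.165) in WT cells. Ube2n differed by -0.46 (adjusted p = 0.0358) in KO-labelled cells and did not pass there without KO-labelled positive replicates 2 or 3, or negative replicates 1, 2 or 3, with adjusted p-values from 0.0598 to 0.164. Across the 35 genes the WT and KO-labelled differences had a Pearson r of 0.987, and across all 19938 genes 0.972; these are correlations across genes, which are not independent replicates. Within groups the members varied about as much as other genes, with a median SD of 0.176 against 0.180. The most variable member was Ube2e2 (SD 0.333).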

How the data were processed

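The authors deposited log2 expression values per probe set of Affymetrix MoGene 1.0 ST arrays, made with RMA and Partek per the submitters' processing notes. Their versions and options, and whether all arrays were run together, are not stated. RMA compresses differences between dim signals.

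Probe sets were named from the platform's table: of 35399, 21789 had 1 symbol, 1621 had several and the rest were unnamed here. Entrez identifiers of 21698 were found in RefSeq (GRCm38.p6), which changed 0 symbols. The brightest probe set per gene left 19938 genes. A model of group means over the 15 arrays was fitted in limma 3.58.1 (R 4.3.3), with 2-sided tests, Benjamini-Hochberg adjustment over all genes, a threshold of 0.05, 11 residual and 4.91 prior degrees of freedom. The number of arrays limits the precision. Errors of differences are SEs, and of levels SDs.

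Members, lists, and the rule for genes named in full (those past the threshold by genotype, Ube2o, Ube2l6, Ube2j1, Ube2h, and the 5 largest rises and 5 largest falls between fractions in WT) were chosen with earlier results of these data known. In partner lists, at most 3 genes per list were named by size, and Maea, Ranbp9 and Armc8 were added after their values were seen, as were Ube2e3 and Ube2t among the members by genotype. Members outside the rule are given by role. No list test was made. The model was tested on simulated data. Other settings tried were array weights, a variance trend, a filter on dim genes, other probe set rules, other scalings, the replicate number, sex or hepatocyte markers as terms, and arrays left out.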

Additional observations from a re-analysis of the deposited data

Results flagged for a closer look

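Of 105 groups of 4 arrays (35 genes in 3 groups), 3 held an array far from the others by Dixon's test at the 95% level, where chance flags about 1 in 20. Ube2d2a stood at 10.50 in KO-labelled TER119 negative replicate 1 against 10.23 to 10.27 in the other arrays of that group. Ube2dnl2 stood at 4.03 in WT TER119 negative replicate 4 against 3.81 to 3.84. Ube2v1 stood at 10.35 in KO-labelled TER119 negative replicate 4 against 10.91 to 10.97. The last 2 arrays belong to the 3 that stand apart.

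The effect of the genotype differed between the fractions for 2 of 35 genes in limma's test of the difference, against 0.436% of all genes. This count too comes from members chosen with earlier results known. Ube2j1 differed by 0.92 (adjusted p = 0.000856) and passed under all 26 other settings. Ube2w differed by 0.87 (adjusted p = 0.0381) and passed under 8 of 26.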

How the results depend on the processing

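Of 1006 values of single genes under other settings, 946 kept their direction and side of the threshold. The numbers of calls by genotype in TER119 negative cells (0) stayed at 0 throughout. With 1 array left out, calls ran from 1 to 2 by genotype in TER119 positive cells, 1 to 2 for the difference of effects, 20 to 22 between fractions in WT and 22 to 24 in KO-labelled cells. The members' medians then ran from -0.063 to -0.033, 0.060 to 0.099 (TER119 negative), -0.179 to -0.069 (difference of effects), -0.025 to 0.059 (WT) and -0.008 to 0.056 (KO-labelled). The difference of effects held 1 call, Ube2j1, with a variance trend, with median-centred arrays, with sex or hepatocyte markers as a term, without the 3 arrays that stand apart, and with the replicate block.

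With the replicate number as a block the members' median by genotype in TER119 positive cells was -0.091, against -0.011 over all genes. Ube2w's difference of effects then had an adjusted p of 0.0504. The numbers share no source in the labels, and arrays of the same number correlated between -0.384 and 0.654 after group means were taken off, so they were not treated as pairs. The members' medians in TER119 negative cells were 0.124 with median-centred arrays, 0.018 without the 3 arrays and 0.018 with hepatocyte markers. Those over all genes were 0.035, -0.011 and -0.016. For the difference of effects the members' medians were -0.186, -0.040 and -0.043, against -0.052, 0.001 and 0.008 over all genes. Between fractions in WT cells the median was 0.117 without dim genes, 0.002 median-centred, -0.052 after quantile normalization, -0.020 without the 3 arrays and 0.168 with hepatocyte markers. Over all genes these medians were, in the same order, -0.011, -0.139, -0.037, -0.027 and -0.136. In KO-labelled cells the members' median was -0.068 median-centred and 0.205 with hepatocyte markers, against -0.162 and -0.123 over all genes.

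Hepatocyte markers as a term, which differ between the fractions on all arrays, left 12 calls in KO-labelled cells (from 24) and 14 in WT cells (from 21). They turned Ube2b (-0.749) and Ube2q2 (0.168) in WT and Ube2n (0.762) and Ube2q2 (0.205) in KO-labelled cells, none of them past the threshold. The mean of probe sets turned Ube2l3 in KO-labelled cells (0.436). The cause was not tested. A fit on the groups compared alone could not differ for the difference of effects and was not run. The values hold no detection calls, so what lies at background is not known.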
